A study of Mus musculus with 8 samples.

Results

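The genes described here are 10 protein-coding genes of late red cell maturation, chosen by name for known roles in expelling the nucleus, clearing mitochondria, autophagy and remodelling the proteome. They are Xpo7, Trim58, Bnip3l, Alox15, Ulk1, Map1lc3b, Gabarapl1, Foxo3, Ube2o and Bpgm. The rule uses no measured value. All 10 were matched by symbol among the 37620 gene IDs of the count files, and all 10 were among the 15355 genes that passed the filter on low counts, with at least 3 counts in each of the 8 libraries.

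In the last steps of erythropoiesis, the precursors of red blood cells stop dividing, condense and expel the nucleus, and the resulting reticulocytes lose their mitochondria and ribosomes. Mitochondria are removed largely by mitophagy, in which autophagosomes engulf them and fuse with lysosomes. Proteins that a mature red cell does not need are marked with ubiquitin and degraded, while hemoglobin and the enzymes that tune its oxygen affinity build up.

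The libraries were made from erythroid progenitors of C57BL/6 mouse fetal livers (E14.5), separated magnetically, transduced, and cultured with erythropoietin for 24 h. Each of 2 hairpins against Bloodlinc, a long noncoding RNA, had 1 library (Bloodlinc_sh1 and Bloodlinc_sh2), set against 1 control hairpin library (Bloodlinc_shCTL). A knockdown of hnRNPU, a nuclear RNA-binding protein, had the same layout (hnRNPU_sh1 and hnRNPU_sh2 against hnRNPU_shCTL). A Bloodlinc expression vector (Bloodlinc_vector) was set against an empty vector (Empty_vector), with 1 library each. All 8 libraries thus came from transduced cells in the same medium. The labels do not give the promoters of the vectors, whether transduced cells were sorted, or whether libraries came from separate cultures or embryos, so the p-values reflect no more than the spread among the libraries at hand. The p-values and standard errors (SE) rest mostly on a dispersion estimated over all genes. They measure little of the spread between the 2 hairpins for a single gene.

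Gene counts ran from 23682993 to 34540691 in 6 libraries but were 2931627 and 2612916 with hnRNPU hairpins 1 and 2. In those shallow libraries the share of uniquely placed reads that fell outside genes was 89.7% and 86.6%, compared with 21.7% to 30.1% elsewhere. Gene IDs without a match in the annotation used here held 32.9% and 23.1% of their gene counts, compared with 0.695% to 1.45% elsewhere. Levels are given as TMM CPM, counts scaled to a common library total (CPM) and corrected by the trimmed mean of M values. A floor of 3 counts stands for 0.0655 to 1.77 CPM, depending on the library. Hnrnpu stood at 325 and 373 CPM with its hairpins, against 588 CPM with the control hairpin (log2 fold change -0.75, SE 0.58), and missed the threshold of edgeR's quasi-likelihood test (adjusted p = 0.730). Bloodlinc RNA had 2.19 and 1.75 CPM with its hairpins, against 4.46 CPM with the control hairpin (log2 fold change -1.18, SE 0.81; edgeR adjusted p = 1), and 5.46 CPM with its vector, against 1.26 CPM with the empty vector. The 9 erythroid markers used, among them Slc4a1 and Alas2, were read in every library and summed to 6218 to 44720 CPM. Of the lists for other cell types, neutrophil markers summed to 41.3 to 9254 CPM, and lymphoid markers summed to at most 0.605 CPM.

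Per kilobase of exon, the mean level over the 3 control libraries (2 control hairpins and the empty vector) was highest for Ube2o, at 207 ± 97.0 CPM per kb (SD, n = 3). Bpgm followed with 157 ± 118 CPM per kb (SD, n = 3), then Bnip3l with 109.7 ± 64.3 and Foxo3 with 107 ± 75.7 CPM per kb. Each of these 4 genes stood above at least 97.9% of protein-coding genes. Xpo7 had 69.1 ± 46.7 CPM per kb (SD, n = 3), Gabarapl1 27.7 ± 8.24, Ulk1 19.7 ± 9.18, Trim58 15.6 ± 9.23 and Map1lc3b 13.8 ± 11.2 CPM per kb. Down to Map1lc3b, neighbours in this order lay less than 1 SD apart by the larger of their SDs. The order also depends on the length used, which counts every annotated exon base, 19005 for Xpo7 and 5288 for Ube2o. Before division by length, Xpo7 had 2195, 1327 and 420 CPM in the Bloodlinc control, hnRNPU control and empty vector libraries. Ube2o had 1563, 1179 and 547 CPM there. Alox15 came last with 0.852 ± 0.654 CPM per kb (SD, n = 3), a level above only 33.5% of protein-coding genes.

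The controls themselves differed by far more than counting error. The ratio of the highest to the lowest control library ran from 1.81 for Gabarapl1 to 8.79 for Alox15. Against the Bloodlinc control hairpin, the empty vector library was lower in 8 of the 10 genes, by up to 2.57 on the log2 scale for Bpgm. It was higher for Gabarapl1, by 0.85, and for Alox15, by 2.91. Over all genes tested, 50.7% differed by more than 2-fold between the same libraries, and each comparison below uses the control of its own arm.

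**Figure D1:**
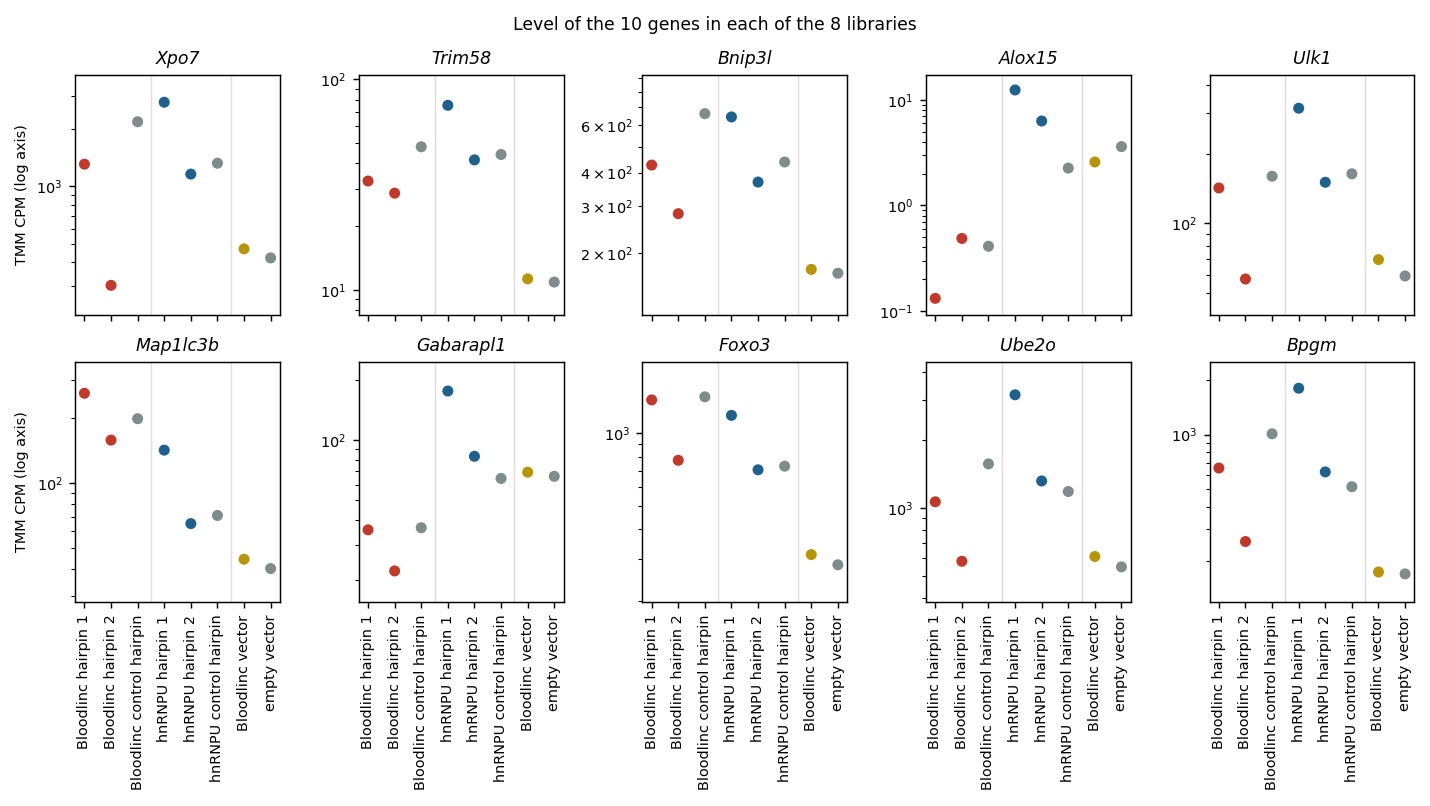
Level of each gene (TMM CPM, log axis) in the 8 libraries, 1 point a library, with Bloodlinc hairpins in red, hnRNPU hairpins in blue, the Bloodlinc vector in yellow and controls in grey. The vector pair is lowest for 5 genes (Trim58, Bnip3l, Map1lc3b, Foxo3 and Bpgm), while Alox15 and Gabarapl1 are lowest in the Bloodlinc hairpin arm.

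Promoter sequence is shown for Trim58, Ulk1, Map1lc3b and Gabarapl1: Trim58 is an enucleation gene, Ulk1 was among the genes that tracked the others most closely, and Map1lc3b and Gabarapl1 are the autophagy pair whose balance differed between the Bloodlinc hairpin arm and the rest. Each stretch lies within the 250 bases upstream of the RefSeq start on GRCm38.p6, ends where the annotated gene begins, and is written 5′ to 3′ on the strand of the gene. Capitals mark GATAA or TTATC, the core letters bound by GATA factors, and CACCC or GGGTG, the core bound by KLF factors.
Trim58, chr11:58640215-58640464, plus strand: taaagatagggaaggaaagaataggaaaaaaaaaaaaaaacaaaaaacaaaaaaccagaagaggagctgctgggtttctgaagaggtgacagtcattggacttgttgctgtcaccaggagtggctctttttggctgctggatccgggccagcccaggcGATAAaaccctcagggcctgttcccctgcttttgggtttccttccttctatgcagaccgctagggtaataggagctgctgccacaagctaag
Ulk1, chr5:110810098-110810331, minus strand: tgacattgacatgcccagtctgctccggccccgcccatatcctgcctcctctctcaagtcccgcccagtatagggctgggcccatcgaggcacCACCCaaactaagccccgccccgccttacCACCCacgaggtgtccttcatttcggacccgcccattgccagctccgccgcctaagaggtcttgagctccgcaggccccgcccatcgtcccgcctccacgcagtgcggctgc
Map1lc3b, chr8:121590188-121590360, plus strand: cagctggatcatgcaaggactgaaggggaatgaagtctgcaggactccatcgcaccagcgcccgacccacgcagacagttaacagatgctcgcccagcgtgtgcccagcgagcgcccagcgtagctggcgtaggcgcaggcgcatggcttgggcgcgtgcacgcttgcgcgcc
Gabarapl1, chr6:129532942-129533159, plus strand: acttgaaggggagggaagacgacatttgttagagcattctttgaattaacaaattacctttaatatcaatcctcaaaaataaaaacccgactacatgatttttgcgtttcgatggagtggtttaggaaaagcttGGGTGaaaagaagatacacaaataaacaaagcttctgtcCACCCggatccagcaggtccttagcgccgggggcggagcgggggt
Of 6 genes with an entry in the promoter table (Foxo3 and Bpgm besides these), 1 held GATAA or TTATC in the full 250 bases, Trim58 at position -92, against 22.6% of 32851 promoters. CACCC or GGGTG was found in 3 of the 6, against 52% of all promoters: in Ulk1 at -157 and -128, in Gabarapl1 at -116, -77 and -36, and in Map1lc3b at -24. The sites at -36 and -24 reach beyond the stretches printed. Neither TGTTTAC or GTAAACA, the letters of a FOXO site, nor CACGTG, the E-box bound by TFEB, was found in any of the 6, against 3.17% and 6.02% of all promoters. Both strands were searched, no match found here overlaps another, and a match shows only that the letters are there.

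The enucleation genes Xpo7 and Trim58 stood below the control in both Bloodlinc hairpin libraries. Xpo7 (chr14:70654246-70766628, minus strand, GRCm38) encodes an exportin that in mouse erythroblasts is needed for the nucleus to condense and leave the cell. It had 1311 and 301.0 CPM with Bloodlinc hairpins 1 and 2, against 2195 CPM with their control hairpin. It had 2782 and 1162 CPM with hnRNPU hairpins 1 and 2, against 1327 CPM with their control. With the Bloodlinc vector it had 469 CPM, against 420 CPM with the empty vector. The hnRNPU control thus lay between its hairpins, and hairpin 2 of Bloodlinc was the lowest of all 8 libraries. The log2 fold change of Xpo7 was -1.45 (SE 0.62) in the Bloodlinc knockdown and did not pass edgeR's test over all genes (adjusted p = 0.989). In the hnRNPU knockdown it was 0.57 (SE 0.66; edgeR adjusted p = 0.835). The pair of Bloodlinc hairpins differed by 2.12 on the log2 scale, more than the fitted change.

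Trim58 (chr11:58640465-58652404, plus strand) encodes a ubiquitin ligase that in mouse erythroblasts promotes the degradation of the motor protein dynein. Its level was 32.8 and 28.8 CPM with Bloodlinc hairpins 1 and 2, against 47.7 CPM with the control hairpin. The hnRNPU hairpins gave 75.1 and 41.4 CPM, against 43.9 CPM in their control. The vector pair was lowest, with 11.3 CPM for the Bloodlinc vector, against 10.9 CPM for the empty vector. Of the 10 genes, Trim58 had the closest Bloodlinc hairpins, 0.19 apart on the log2 scale. Its log2 fold changes were -0.63 (SE 0.53; edgeR adjusted p = 1) in the Bloodlinc knockdown and 0.40 (SE 0.56; edgeR adjusted p = 0.863) in the hnRNPU knockdown.

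Among the mitophagy genes, Bnip3l followed the pattern of the enucleation genes and Alox15 did not. Bnip3l (chr14:66985239-67008877, minus strand), also called Nix, encodes the outer membrane receptor through which reticulocyte mitochondria are taken into autophagosomes. It stood at 427 and 281 CPM with Bloodlinc hairpins 1 and 2, against 664 CPM with their control hairpin. With hnRNPU hairpins 1 and 2 it stood at 645 and 369 CPM, against 438 CPM with their control. The Bloodlinc vector library had 174 CPM, against 168 CPM in the empty vector library. Both Bloodlinc hairpins were below their control, and the hnRNPU control lay between its hairpins. The log2 fold change was -0.91 (SE 0.58) in the Bloodlinc knockdown (edgeR adjusted p = 1) and 0.21 (SE 0.60) in the hnRNPU knockdown (edgeR adjusted p = 0.940).

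Alox15 (chr11:70344152-70352031, minus strand) encodes a lipoxygenase that oxidises membrane lipids, including those of organelles in rabbit reticulocytes, and is also made by mouse macrophages and by eosinophils. It rested on few reads: 3 and 15 counts with Bloodlinc hairpins 1 and 2, against 8 with their control, or 0.132 and 0.486 CPM against 0.410 CPM. The hnRNPU hairpins held 21 and 16 counts in much smaller libraries, against 86 counts in their control, or 12.4 and 6.30 CPM against 2.26 CPM. With the Bloodlinc vector there were 118 counts (2.58 CPM), against 149 counts (3.61 CPM) with the empty vector. Both hnRNPU hairpins lay above their control, and the Bloodlinc control lay between its hairpins. The log2 fold change of 2.03 (SE 0.96) in the hnRNPU knockdown missed the threshold of edgeR's test (adjusted p = 0.457), and that of -0.36 (SE 1.02) in the Bloodlinc knockdown missed it too (adjusted p = 1). Summed levels of markers of other cells were also higher in the hnRNPU arm. The 7 eosinophil and mast cell markers summed to 168.5 and 125.7 CPM with the hnRNPU hairpins, against 49.5 CPM in their control, and the 10 macrophage markers to 75.7 and 31.1 CPM, against 21.3 CPM. Most of the macrophage sum came from Csf1r (44.9 and 13 CPM, against 12.5 CPM), Adgre1 (17.1 and 11.4 CPM, against 4.64 CPM) and Cd68 (12.4 and 3.55 CPM, against 3.15 CPM). C1qa was at 0 in both hairpin libraries and their control, where 3 counts stand for 1.77, 1.18 and 0.0787 CPM. The 8 neutrophil markers summed to 9254 and 3415 CPM with the hnRNPU hairpins, against 1591 CPM, and 2 of them passed edgeR's test there, Ngp (log2 fold change 2.73, adjusted p = 0.0151) and Ltf (2.71, adjusted p = 0.0136). In the Bloodlinc arm the eosinophil and mast cell markers summed to 7.10 and 8.10 CPM, against 13.8 CPM, the macrophage markers to 3.59 and 24.6 CPM, against 4.15 CPM (1.93 and 22.5 CPM of these from Csf1r, against 1.69 CPM), and the neutrophil markers to 41.3 and 52.8 CPM, against 100.5 CPM. Epx, the peroxidase of eosinophils, had 7.09 and 6.70 CPM with the hnRNPU hairpins, against 1.89 CPM, but only 0 and 0.0324 CPM with Bloodlinc hairpins 1 and 2, against 0.154 CPM (0 counts allow up to 0.132 CPM). None of these markers was at 0 in every library, and their part in the Alox15 values was not tested. In libraries of mixed cells, fewer cells of a type and less RNA per cell cannot be told apart, which holds for every gene here.

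The autophagy genes were Ulk1, Map1lc3b and Gabarapl1. Ulk1 (chr5:110784488-110810097, minus strand) encodes the kinase that starts autophagosome formation. It had 143 and 57.4 CPM with Bloodlinc hairpins 1 and 2, against 160.3 CPM with the control hairpin. With the hnRNPU hairpins it had 316 and 151 CPM, against 164 CPM. The Bloodlinc vector gave 69.7 CPM, against 59.2 CPM for the empty vector. Bloodlinc hairpin 1 was close to its control, hairpin 2 was well below it, and the hnRNPU control lay between its hairpins. The log2 fold changes of Ulk1 were -0.68 (SE 0.55; edgeR adjusted p = 1) in the Bloodlinc knockdown and 0.51 (SE 0.57; edgeR adjusted p = 0.830) in the hnRNPU knockdown.

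Map1lc3b (chr8:121590361-121598760, plus strand) and Gabarapl1 (chr6:129533160-129542346, plus strand) encode members of the ATG8 family, small ubiquitin-like proteins that are joined to lipid on the autophagosome membrane and bind cargo receptors such as the product of Bnip3l. Map1lc3b had 261 and 159 CPM with Bloodlinc hairpins 1 and 2, against 199 CPM with their control. It had 142 and 65 CPM with the hnRNPU hairpins, against 70.9 CPM, and 44.5 CPM with the Bloodlinc vector, against 40.2 CPM with the empty vector. Under TMM, the control lay between the hairpins in both knockdowns. With library totals, both Bloodlinc hairpins lay above their control. Its log2 fold changes were 0.08 (SE 0.55; edgeR adjusted p = 1) and 0.54 (SE 0.57; edgeR adjusted p = 0.817) in the Bloodlinc and hnRNPU knockdowns.

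Gabarapl1 had 35.7 and 22.2 CPM with Bloodlinc hairpins 1 and 2, against 36.5 CPM with their control hairpin. It had 176 and 83.1 CPM with the hnRNPU hairpins, against 64.4 CPM, and 69.2 CPM with the Bloodlinc vector, against 66.0 CPM with the empty vector. Both Bloodlinc hairpins were below their control, hairpin 1 only slightly, and both hnRNPU hairpins were above theirs. The log2 fold change of Gabarapl1 was 1.005 (SE 0.56; edgeR adjusted p = 0.577) in the hnRNPU knockdown and -0.34 (SE 0.53; edgeR adjusted p = 1) in the Bloodlinc knockdown. Its exons share 570 bases with 1700101I11Rik, a transcript on the opposite strand. The libraries were strand-specific, but the strand setting of the counting is not given in the sources used here, so reads of the pair cannot be told apart. Overlaps of other genes were small: Xpo7 shares 39 exon bases with Npm2 (2 to 23 counts a library) and Map1lc3b 58 with Zcchc14 (0 to 9 counts), and the 1 named pseudogene of Bnip3l had 0 to 3 counts.

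The balance of the ATG8 pair in the Bloodlinc hairpin arm, control included, stood apart from that in the other libraries. The level per kilobase of Map1lc3b over that of Gabarapl1 was 1.96 and 1.91 with Bloodlinc hairpins 1 and 2, against 1.46 with their control hairpin. It was 0.217 and 0.209 with hnRNPU hairpins 1 and 2, against 0.295 with their control, and 0.172 with the Bloodlinc vector, against 0.163 with the empty vector. Per kilobase, Map1lc3b was thus the more abundant of the pair in the Bloodlinc hairpin arm, control included, and Gabarapl1 in the other 5 libraries. No scaling between libraries can alter this ratio. Which of the pair is the more abundant, and the shares that follow, depend on the exon lengths used (7517 and 2013 bases for the pair). Before division by length, the hnRNPU control had 70.9 CPM of Map1lc3b and 64.4 CPM of Gabarapl1. The contrast of the ratio between libraries does not depend on length. Gabarapl1 made up 3.58% to 4.62% of the summed level of 5 ATG8 genes in the Bloodlinc hairpin arm and 17.1% to 26.1% elsewhere, with Gabarap the most abundant of the family in all 8 libraries. No test of this ratio was run, and the arm and anything else that set its libraries apart cannot be told apart. Neutrophil markers differed along the same line. They summed to 41.3 to 100.5 CPM in the Bloodlinc hairpin arm and to 920.4 to 9254 CPM elsewhere, and their part was not tested. The overlap of Gabarapl1 with 1700101I11Rik applies to this ratio too.

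**Figure D2:**
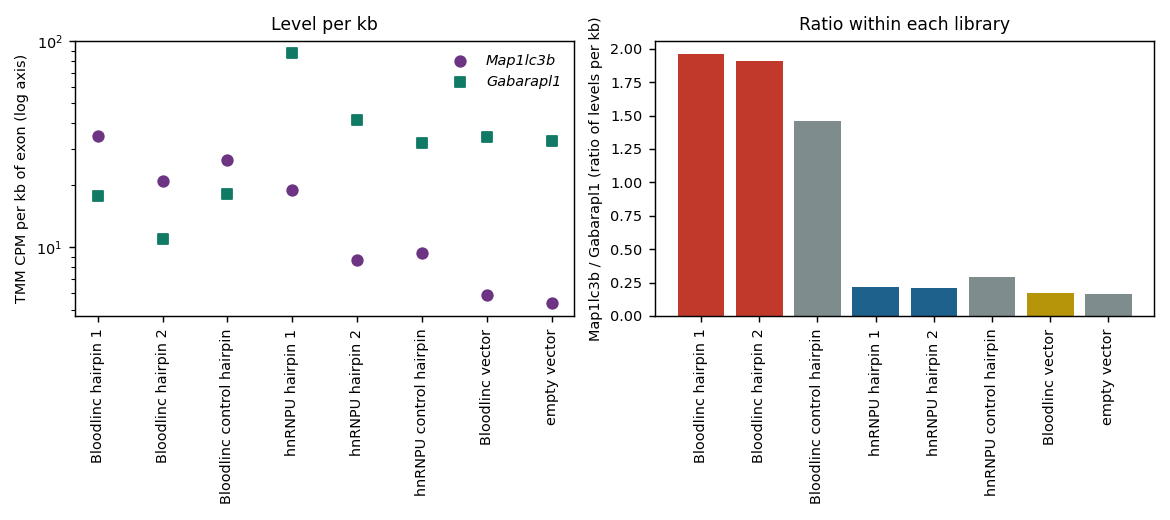
Left, levels of Map1lc3b and Gabarapl1 (TMM CPM per kb of exon, log axis) in each library. Right, their ratio in the same library, 1 bar a library: the 3 bars of the Bloodlinc hairpin arm reach 1.46 to 1.96, and the other 5 stay between 0.163 and 0.295.

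The remaining genes are a transcription factor, an enzyme of protein turnover and an enzyme of metabolism. Foxo3 (chr10:42181841-42276755, minus strand) encodes a forkhead factor that activates autophagy and antioxidant genes and is needed for normal maturation of mouse erythroblasts. It had 1379 and 772 CPM with Bloodlinc hairpins 1 and 2, against 1421 CPM with their control. It had 1189 and 705 CPM with hnRNPU hairpins 1 and 2, against 730.1 CPM, and 312 CPM with the Bloodlinc vector, against 283 CPM with the empty vector. Bloodlinc hairpin 1 differed from its control by only -0.04 log2 units and hnRNPU hairpin 2 by -0.05, so in each knockdown 1 hairpin carried the difference. The log2 fold changes of Foxo3 were -0.40 (SE 0.62; edgeR adjusted p = 1) in the Bloodlinc knockdown and 0.38 (SE 0.64; edgeR adjusted p = 0.889) in the hnRNPU knockdown.

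Ube2o (chr11:116537740-116581447, minus strand) encodes a ubiquitin-conjugating enzyme that in mouse reticulocytes marks ribosomal and other proteins for degradation. Its levels were 1062 and 580 CPM with Bloodlinc hairpins 1 and 2, against 1563 CPM with the control hairpin. With hnRNPU hairpins 1 and 2 they were 3159 and 1313 CPM, against 1179 CPM, and with the Bloodlinc vector 609 CPM, against 547 CPM with the empty vector. Both Bloodlinc hairpins lay below their control and, under TMM, both hnRNPU hairpins above theirs. The log2 fold change was -0.93 (SE 0.63; edgeR adjusted p = 1) in the Bloodlinc knockdown and 0.92 (SE 0.67; edgeR adjusted p = 0.707) in the hnRNPU knockdown.

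Bpgm (chr6:34476207-34505613, plus strand) encodes bisphosphoglycerate mutase, whose product lowers the oxygen affinity of hemoglobin. It had 653 and 256 CPM with Bloodlinc hairpins 1 and 2, against 1009 CPM with their control hairpin. It had 1801 and 621 CPM with the hnRNPU hairpins, against 515 CPM, and 174 CPM with the Bloodlinc vector, against 170.0 CPM with the empty vector. Again both Bloodlinc hairpins were below and both hnRNPU hairpins above their control. Its log2 fold change was -1.15 (SE 0.60; edgeR adjusted p = 1) in the Bloodlinc knockdown and 1.23 (SE 0.66; edgeR adjusted p = 0.541) in the hnRNPU knockdown. The hnRNPU effect minus the Bloodlinc effect was 2.38 (SE 0.89) and missed that threshold in edgeR's test too (adjusted p = 0.543).

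None of the 10 genes passed in the Bloodlinc knockdown, where 0.0977% of all genes tested were called higher and 0.0261% lower by edgeR at an adjusted p under 0.05. At an unadjusted p under 0.05, 1 of the 10 (Xpo7) was reached, against 613 of 15355 genes (3.99%), and DESeq2 and limma-voom also called 0 of the 10. The log2 fold change was negative for 9 of the 10, all but Map1lc3b, against 44.6% of all genes, and its median was -0.66, against 0.06 over all genes. Both hairpin libraries lay below the control for 8 of the 10, a state shared by 30.7% of all genes. The 2 exceptions were Alox15 and Map1lc3b. The count was also 8 with upper quartile scaling and DESeq2 size factors, but 5 with library totals in place of TMM (Xpo7, Trim58, Bnip3l, Ube2o and Bpgm), against 14.3% of all genes. With library totals, both hairpins were above the control for 1 of 10 (Map1lc3b), against 52.4% of all genes. The 8 genes shared their single control library, so they are not 8 separate observations. The 9 erythroid markers also lay lower in this arm, with sums of 27900 and 22340 CPM with hairpins 1 and 2, against 44720 CPM with the control, and log2 fold changes that were negative for 9 of 9 (median -0.74, with none passing). The part of the erythroid markers in the values of the 10 genes was not tested. Hairpin 2 stood further from the control than hairpin 1, with a median over the 10 genes of -1.06 against -0.55 log2 units.

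The hnRNPU knockdown called 0.58% of all genes higher and 0.3% lower, and again none of the 10. At an unadjusted p under 0.05 there was 1 of the 10 (Alox15), against 1518 genes (9.89%), and DESeq2 and limma-voom called 0 of the 10. The fitted log2 fold change was positive for 10 of 10, with a median of 0.56, against -0.09 over all genes, 53.4% of which were negative. Both hairpins lay above the control for 4 of the 10 (Alox15, Gabarapl1, Ube2o and Bpgm), against 28.6% of all genes, and both below it for 0 of the 10, against 42.3% of all genes. The hairpins differed: with hairpin 1 all 10 genes were above the control (median 1.04), whereas with hairpin 2 the count below was 6 of 10 (median -0.07) under TMM, 2 of 10 (0.10) with upper quartile scaling, 4 of 10 (0.04) with DESeq2 size factors and 7 of 10 (-0.28) with library totals. The median of all genes in the fit moved from -0.09 with TMM to 0.03 with DESeq2 size factors and 0.07 with upper quartile scaling. Both hairpins were then above the control for 8 of 10 with upper quartile scaling (34% of all genes) and 6 of 10 with DESeq2 size factors (32.8%), so that the place of the control between the hairpins, given above for Trim58, Ulk1, Map1lc3b and Foxo3, depends on the scaling. With library totals, 4 of the 10 genes were below the control with hairpin 1, in a library whose median over all genes was then -1.09. Both hairpins were then below it for 4 of 10 (Trim58, Bnip3l, Ulk1 and Foxo3), against 58.2% of all genes. The place of the Bnip3l control between its hairpins thus depends on the scaling too. With library totals, both hairpins were above the control for 3 of 10 (Alox15, Gabarapl1 and Bpgm), against 15.4% of all genes. Ube2o was no longer among them. Relative to the median of all genes under TMM, 10 of 10 were higher with hairpin 1 and 7 of 10 with hairpin 2. Markers of other blood cells stood beside this: the log2 fold change was positive for 8 of 8 neutrophil markers (median 2.11, with 2 passing) and 6 of 6 tested eosinophil and mast cell markers (median 1.53, with 0 passing). Of 8 tested macrophage markers, 1 was negative (median 1.25, with 0 passing). Among the macrophage markers, C1qa was at 0 in both hairpin libraries and their control, and C1qb and Mrc1 were at 0 with hairpin 1. In the control, C1qb and Mrc1 had only 0.0525 CPM each, and 3 counts stand for 1.77 CPM with hairpin 1. A count of 0 there therefore cannot show a lower level. Erythroid markers went mostly the other way, with sums of 17060 and 13030 CPM, against 18170 CPM, and negative log2 fold changes in 8 of 9 (median -0.81). The exception, Alas2, had 6618 and 3086 CPM, against 2743 CPM. Slc4a1 was higher with hairpin 1 only (6957 and 5051 CPM, against 6263 CPM). Both hairpin libraries had the shallow depth, the high share of reads outside genes and the high share of counts on unmatched IDs described above. The part of these and of the markers in the values was not tested.

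**Figure D3:**
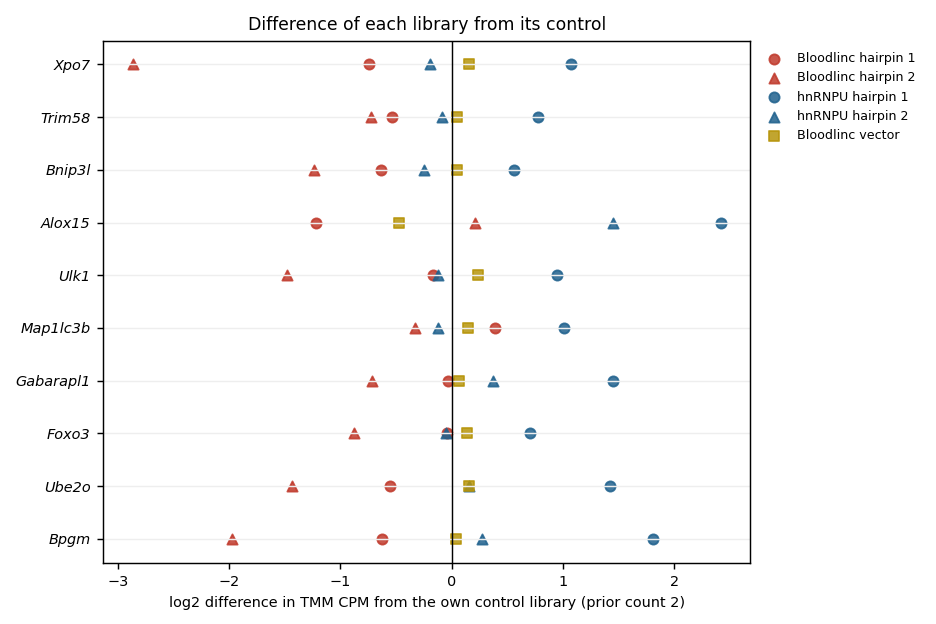
Log2 difference in TMM CPM of each library from its own control library (prior count 2), 1 row a gene, with circles for hairpin 1, triangles for hairpin 2 and squares for the Bloodlinc vector. Bloodlinc hairpins (red) lie mostly left of 0, hnRNPU hairpin 1 (blue circles) lies right of 0 for all 10 genes under TMM (6 of 10 with library totals), and hnRNPU hairpin 2 straddles 0 (6 of 10 below under TMM, 2 of 10 with upper quartile scaling).

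The difference between the knockdown effects was positive for all 10 genes, with a median of 1.26, against -0.30 over all genes, and edgeR called 0 of the 10, against 0.326% of all genes. At an unadjusted p under 0.05 there were 3 of the 10, against 631 genes (4.11%) in all: Bpgm, Xpo7 (2.02, SE 0.93; edgeR adjusted p = 0.9999) and Ube2o (1.85, SE 0.92; edgeR adjusted p = 0.9999). DESeq2 and limma-voom called 0 of the 10. The opposite signs in the knockdowns are therefore not shown to differ for any gene here.

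With the Bloodlinc vector the 10 genes moved little. With 1 library on each side there is no test, and a 95% exact binomial interval, conditional on the summed counts, covers counting error only. The interval lay above no change for 6 of the 10, against 14.1% of all genes, and below it for 1 of the 10, against 8.66% of all genes. The count above was 5 with upper quartile scaling or DESeq2 size factors, which lose Bnip3l, and 8 with library totals, which add Gabarapl1 and Bpgm. Ulk1 had the largest positive log2 ratio, 0.24 (interval 0.16 to 0.31), followed by Xpo7 with 0.16 (0.13 to 0.19). Ube2o had 0.15 (0.13 to 0.18), Map1lc3b 0.14 (0.05 to 0.24), Foxo3 0.14 (0.11 to 0.18) and Bnip3l 0.05 (0.0014 to 0.09). Alox15 was the gene below, with -0.48 (-0.84 to -0.13). The eosinophil and mast cell markers summed there to 51.8 CPM, against 62.1 CPM, and the macrophage markers to 17.9 CPM, against 24.3 CPM, and their part was not tested. The intervals of Gabarapl1 (0.07), Trim58 (0.05) and Bpgm (0.03) included no change. The median log2 ratio of the 10 was 0.10, against 0.01 over all genes, and most of these genes are read deeply, so their intervals are narrow. Erythroid markers summed to 6722 CPM with the Bloodlinc vector, against 6218 CPM with the empty vector.

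Over the 8 libraries, most of the 10 genes varied together. Their mean centred log2 CPM was highest with hnRNPU hairpin 1 (1.42) and lowest with the empty vector (-0.87). As a description over 8 libraries that share depth and arm, the Pearson r of log2 CPM with the mean of the other 9 genes was 0.996 for Ube2o, 0.972 for Ulk1, 0.957 for Bpgm and 0.905 for Xpo7. It was 0.874 for Trim58, 0.863 for Bnip3l and 0.650 for Foxo3. Gabarapl1 (0.481), Map1lc3b (0.320) and Alox15 (0.0836) stood apart. These 3 were not uniform: Alox15 and Gabarapl1 correlated with each other at 0.897, and Map1lc3b with Foxo3 at 0.917. Among 8319 other protein-coding genes with a mean of at least 5 CPM, those most like the mean of the 10 were Epb41 (r = 0.997), Fam126a, Mkrn1 and Cdk12 (r = 0.988 each) and Pink1 (r = 0.984). For single genes, the nearest was Epb41 for Ube2o (r = 0.996), Mtmr3 for Bpgm, Slc22a23 for Xpo7, Isg20 for Trim58, Fbxo9 for Bnip3l, St3gal5 for Ulk1, Tut7 for Foxo3, Rc3h2 for Map1lc3b, Psmd11 for Gabarapl1 and Cd33 for Alox15 (r from 0.989 to 0.996). Genes this close were thus found even for those that stood apart. The usual r among other genes is not given here, so the r values are not shown to be particular to the 10 genes.

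Lists of related genes, chosen for known function, contained no gene that passed edgeR's test in either knockdown or in their difference. Of all genes tested, 44.6% were negative in the Bloodlinc knockdown (median 0.06) and 53.4% in the hnRNPU knockdown (median -0.09). All genes of a list share a single control library in each knockdown, so they are not separate observations. The 26 genes of the autophagosome machinery had a median log2 fold change of 0.02 in the Bloodlinc knockdown, with 13 negative, and of 0.14 in the hnRNPU knockdown, with 11 negative. None passed, and the most changed were Atg4a, a protease that trims ATG8 proteins (90.4 and 27.7 CPM with Bloodlinc hairpins, against 118 CPM; log2 fold change -1.001), and Atg14, a subunit of the lipid kinase complex (248 and 100.1 CPM with hnRNPU hairpins, against 57.2 CPM; log2 fold change 1.60, edgeR adjusted p = 0.246). Atg4d was lower with the hnRNPU hairpins, with 31.3 and 37.8 CPM, against 93.8 CPM (log2 fold change -1.44, edgeR adjusted p = 0.243). The 15 autophagy receptors and mitophagy factors had medians of -0.32 in the Bloodlinc and 0.64 in the hnRNPU knockdown, with 10 and 5 negative. Among them was Bnip3, the paralog of Bnip3l and also a mitochondrial receptor, with 444 and 402 CPM with Bloodlinc hairpins, against 156 CPM. Both Bloodlinc hairpins were thus above the control for Bnip3 and below it for Bnip3l, yet the log2 fold change of Bnip3, 1.44 (SE 0.60), did not pass (edgeR adjusted p = 0.944). With hnRNPU hairpins, Bnip3 had 76.8 and 18.1 CPM, against 16.2 CPM (log2 fold change 1.54, edgeR adjusted p = 0.331). Sqstm1, the receptor p62, had 1424 and 496 CPM with hnRNPU hairpins, against 376 CPM (log2 fold change 1.35, edgeR adjusted p = 0.468).

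The 13 lysosome genes had medians of 0.14 in the Bloodlinc and 0.39 in the hnRNPU knockdown. In the ubiquitin and proteasome list, 21 of 23 genes were negative in the Bloodlinc knockdown (median -0.44), with 0 passing, and 12 of 23 in the hnRNPU knockdown (median -0.09). Rnf11, a ubiquitin ligase, had 90.4 and 211 CPM with Bloodlinc hairpins, against 313 CPM (log2 fold change -1.05, edgeR adjusted p = 1). In the hnRNPU knockdown, Ube2c and Rnf123 had log2 fold changes of -1.58 (edgeR adjusted p = 0.1835) and -1.45 (edgeR adjusted p = 0.2715). The 24 genes of nucleus and cytoskeleton in enucleation lay evenly, with 11 and 10 negative and medians of 0.01 and 0.04 in the Bloodlinc and hnRNPU knockdowns. Dync1h1, a dynein gene, was higher with Bloodlinc hairpins, with 270.6 and 439.5 CPM, against 175.5 CPM (log2 fold change 1.02, SE 0.60, not passing). Riok3, a kinase linked to mouse erythroblast enucleation, had 553 and 416 CPM with Bloodlinc hairpins, against 905 CPM (log2 fold change -0.90, edgeR adjusted p = 1). With hnRNPU hairpins, Vim had a log2 fold change of 1.67 (edgeR adjusted p = 0.208). Of 15 genes linked to FOXO3, stress and quiescence, 7 were negative in the Bloodlinc knockdown (median 0.10) and 3 in the hnRNPU knockdown (median 0.42). Txnip, a regulator of thioredoxin, had 162 and 154 CPM with Bloodlinc hairpins, against 67.0 CPM (log2 fold change 1.24, edgeR adjusted p = 1). Of 15 progenitor genes that fade in terminal differentiation, 7 were negative in the Bloodlinc knockdown (median 0.04) and 2 in the hnRNPU knockdown (median 0.77). Kit, the stem cell factor receptor, had 28.1 and 6.35 CPM with Bloodlinc hairpins, against 6.30 CPM, so that hairpin 1 alone was high (log2 fold change 1.45, edgeR adjusted p = 0.921).

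**Figure D4:**
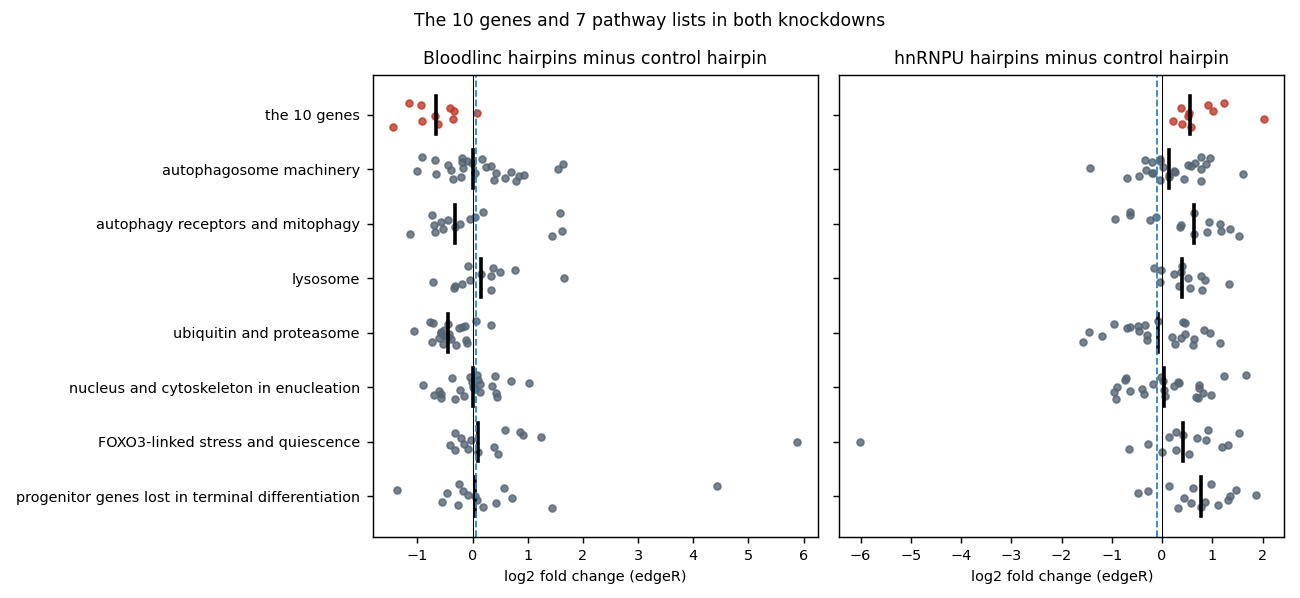
Log2 fold changes from the edgeR fit for the 10 genes (red) and 7 lists of related genes (grey), 1 point a gene, in the Bloodlinc knockdown (left) and the hnRNPU knockdown (right). Black bars are medians and the dashed line is the median of all genes tested (0.06 and -0.09): the bar of the 10 genes is at -0.66 on the left and at 0.56 on the right.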

How the data were processed

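Total RNA without ribosomal RNA was sequenced in 8 strand-specific libraries, per the labels. The authors deposited raw counts per gene (37620 Ensembl IDs and 5 summary entries, which were left out of totals); per the submitters' processing notes, alignment used TopHat2 2.0.11 and mm9, and counting used HTSeq. The HTSeq version, annotation and strand setting are not given in the sources used here. GENCODE M21 (GRCm38) gave symbols for 87.4% of IDs, positions and exon lengths, and RefSeq (GRCm38.p6) gave promoters.

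All 8 libraries, in 6 groups, entered a single fit in edgeR 4.0.16 under R 4.3.3, with TMM, filterByExpr and quasi-likelihood F-tests, adjusted by Benjamini-Hochberg over 15355 genes at a threshold of 0.05. With 2 residual degrees of freedom (prior 396.7, common dispersion 0.145), each control library was assumed to vary like the hairpins. The prior far outweighs the residual, so an SE says little about the spread of that gene's own hairpins. In the Bloodlinc knockdown, Trim58 (hairpins 0.19 apart) had an SE of 0.53 and Xpo7 (2.12 apart) an SE of 0.62. SE is the log2 fold change over the square root of F. DESeq2 1.42.0 and limma-voom (limma 3.58.1) were among the alternatives. From most lists of related genes, the text names some of the 2 genes a knockdown with the largest change among those of at least 5 CPM. They are said not to pass. An erythroid marker of the list is not reported here. The genes and lists were chosen with earlier results of these data known. Intervals and floors cover counting error only.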

Additional observations from a re-analysis of the deposited data

How the results depend on the processing

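Single genes passed only where the control library was changed. In the Bloodlinc knockdown, 1 of the 10 genes passed edgeR's test against the hnRNPU control hairpin (Alox15) and 1 against the mean of the 3 controls (Map1lc3b). In the hnRNPU knockdown, 2 passed against the Bloodlinc control hairpin (Alox15 and Gabarapl1) and 3 against the mean of the 3 controls (these and Bpgm). Every other setting called 0 of the 10 in both knockdowns, and every setting run called 0 in their difference.

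Signs turned as follows (log2). In the Bloodlinc knockdown, Foxo3 came to 0.56 against the other control hairpin, and Trim58 to 0.12, Foxo3 to 0.69 and Bpgm to 0.030 against the mean of the 3 controls. In the hnRNPU knockdown, the other control hairpin gave -0.15 for Xpo7, -0.39 for Bnip3l, -0.95 for Map1lc3b and -0.59 for Foxo3. Leaving out 1 hairpin library at a time gave ranges of -1.60 to 0.27 for Alox15 and -0.31 to 0.39 for Map1lc3b in the Bloodlinc knockdown, both turning without hairpin 1 of Bloodlinc. In the hnRNPU knockdown the ranges were -0.20 to 1.06 for Xpo7, -0.093 to 0.77 for Trim58, -0.26 to 0.55 for Bnip3l, -0.13 to 0.94 for Ulk1, -0.13 to 1.002 for Map1lc3b and -0.059 to 0.70 for Foxo3, each turning without hairpin 1 of hnRNPU. For the difference of effects, Map1lc3b ranged from -0.23 to 0.93, turning in the same way. Against the mean of the 2 control hairpins in place of the empty vector, the Bloodlinc vector gave log2 ratios of -1.86 for Xpo7, -1.63 for Bnip3l, 1.31 for Alox15, -1.22 for Ulk1, -1.42 for Map1lc3b, -1.70 for Foxo3 and -1.16 for Ube2o, and -2.01 for Trim58 and -2.05 for Bpgm, whose intervals against the empty vector had included no change. The causes were not tested. Other alternatives kept the sign and side of the threshold in 152, 135 and 129 values of the 10 genes in the Bloodlinc knockdown, the hnRNPU knockdown and their difference.

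Calls over all genes moved more. The 19 of the Bloodlinc knockdown became 5 with DESeq2 or robust estimation, 0 with limma-voom, a 5 CPM filter, only 3 libraries or (added after seeing the data) without both hnRNPU hairpin libraries, 0 to 63 with 1 hairpin library left out, and 1043 and 918 against the other control and the mean of 3. The 135 of the hnRNPU knockdown became 9 with limma-voom, 8 with the filter, 65 with robust estimation, 7 and 59 without hairpins 1 and 2, and 2340 and 1497 against other controls. The 50 of the difference became 22 with DESeq2, 3 with limma-voom, 5 with the filter, 23 with robust estimation, 7 with 6 libraries, and 6 and 30 without hnRNPU hairpins 1 and 2. No paired analysis was possible because each hairpin group shares at most 1 replicate number with its single control, and hairpin numbers name different hairpins. Depth limits Alox15 most, with 3 to 21 counts in the hairpin libraries.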
